A study of Mus musculus with 49 samples.

Results

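The genes that write, copy and erase DNA methylation were followed through normal blood formation and MLL-AF9 leukaemia. They are 9 of the 38253 genes in the table: the methyltransferases Dnmt1, Dnmt3a and Dnmt3b, the Dnmt1 partner Uhrf1, the hydroxylases Tet1, Tet2 and Tet3, and the isocitrate dehydrogenases Idh1 and Idh2. They were chosen by name, not by their values, and each matched 1 Ensembl gene. RNA was sequenced from 49 samples in 10 groups, each sample from 1 mouse. The 30 normal samples came from untransduced bone marrow of female C57BL/6J mice aged 6 to 12 weeks, depleted of lineage-positive cells and sorted. They were 5 samples of LT-HSC and 5 of ST-HSC (the long-term and short-term haematopoietic stem cells), 6 of multipotent progenitors (MPP), 5 each of common myeloid (CMP) and granulocyte-macrophage (GMP) progenitors, and 4 of megakaryocyte-erythroid progenitors (MEP). The 19 leukaemias arose in sublethally irradiated recipients of such cells that carried a retrovirus with the MLL-AF9 fusion (MA9) and green fluorescent protein (GFP). They are named by the cell transduced: 3 were STHSC:MA9, 6 MPP:MA9, 4 CMP:MA9 and 6 GMP:MA9. They are bulk GFP-positive tumour cells, taken from the spleen by the study's methods and from bone marrow by the labels, and every sample is labelled wild type. The fusion was expressed from the retroviral vector, and transformation, transduction and transplantation cannot be told apart in comparisons with the normal cells. No leukaemia of LT-HSC or MEP origin was analysed here.

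DNA methylation in mammals is laid down on cytosine in CpG dinucleotides. Dnmt3a and Dnmt3b add it to unmethylated DNA, Dnmt1 copies it to the new strand behind the replication fork, and Uhrf1 brings Dnmt1 to the hemimethylated sites. The TET enzymes oxidise 5-methylcytosine to 5-hydroxymethylcytosine and further, using 2-oxoglutarate as a co-substrate, and the IDH enzymes make that 2-oxoglutarate from isocitrate, Idh1 in the cytosol and Idh2 in mitochondria. DNMT3A, TET2, IDH1 and IDH2 are among the genes recurrently mutated in human acute myeloid leukaemia. RNA levels say nothing of the methylation itself, which was not measured here.

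Dnmt1 and Uhrf1 act at the replication fork, and their RNA levels are set beside those of S phase genes further on, so their promoters were searched for the letters TTTNNCGC, a core of the motif bound by E2F factors, which drive S phase genes. The search read both strands of the 250 bases before each listed start (RefSeq, GRCm38.p6). Of the 9 genes, 2 held a match, Dnmt1 and Uhrf1, and the other 7 held none. Dnmt1 and Dnmt3a had 3 listed starts each, Uhrf1 and Idh1 2 each and the others 1. A gene with more starts thus had more sequence searched, and starts 1 and 2 of Dnmt1 held no match. Of 27025 genes with a listed start, 4.94% held one, and of 13 genes of the S phase list that had a listed start, 4 did. By window, 4.28% of 32851 held a match. The matches are printed in capitals, 5′ to 3′ on the gene's own strand. The first Uhrf1 window is given whole, with its match 49 to 56 bases before the start. For the other two, 30 bases around the match are given, since both lie downstream of another start of the same gene, by 137 bases for Dnmt1 and by 791 for Uhrf1. The capitals of Dnmt1 are 2 overlapping matches on the opposite strand. A match is a run of letters and not a measured binding site.
Uhrf1, start 1, chr17:56303087-56303336, plus strand: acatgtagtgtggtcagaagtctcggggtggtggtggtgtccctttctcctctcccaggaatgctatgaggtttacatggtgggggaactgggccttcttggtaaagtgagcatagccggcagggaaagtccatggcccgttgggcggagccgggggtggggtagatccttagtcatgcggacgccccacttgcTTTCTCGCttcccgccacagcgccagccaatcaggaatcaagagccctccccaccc
Uhrf1, start 2, chr17:56304117-56304146, plus strand: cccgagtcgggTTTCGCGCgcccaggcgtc
Dnmt1, start 3, chr9:20952823-20952852, minus strand: gtttccgcgcGCGCGAAAAAgccggggtct

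Levels are given in FPKM, fragment counts scaled to transcript length and library size. Levels of different samples also move with the share that a few genes take of a library, and mitochondrial genes took 12.5% to 36.7% of the summed FPKM. Changes are differences of log2(FPKM + 1), so that 1 is about a 2-fold change and changes of low genes are understated. They were tested in limma with p-values adjusted by Benjamini-Hochberg over every gene tested, two-sided. A gene is called, or said to have risen or fallen, where the adjusted p was below 0.05 and the log2 change beyond 1. Bulk RNA cannot separate fewer cells that express a gene from less RNA in each cell.

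The libraries held 15282 to 17852 genes above 0 FPKM, and reads per library were not in the files. The markers followed the labels in part. Slamf1 was 4.79 to 17.0 FPKM in ST-HSC and LT-HSC and at most 0.30 in MPP, and Gata1 was at least 49.5 in MEP and at most 0.41 in every leukaemia. However, the 5 stem cell markers that include Slamf1 summed to a median of 229 FPKM in MPP, 213 in LT-HSC and 211 in ST-HSC. The 4 MEP markers that include Gata1 summed to 2776 to 3267 in MEP and reached 2790 in LT-HSC. Mature cell transcripts set 4 libraries apart. The summed FPKM of 6 granulocyte markers was 28379 and 69508 in LT-HSC replicates 5 and 4, against 20.6 to 39.9 in the other 3, and 8372 and 40324 in ST-HSC replicates 5 and 4, against 48.7 to 1148. The 4 erythroid markers, haemoglobin genes among them, were highest in the same 4 libraries, at 4331 to 51057, with ST-HSC replicate 2 close behind at 4306. Results that rest on these libraries are given with and without them.

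Of the 9 genes, more fell than rose in leukaemia. Averaged over the 4 origins, 5 of the 9 genes fell (Dnmt3a, Dnmt3b, Uhrf1, Tet1 and Idh2), where 11.3% of the 12600 genes tested fell, and 2 rose (Tet2 and Idh1), where 12.1% rose. By origin, 4 genes fell and 2 rose in STHSC:MA9 against ST-HSC (background 11.9% and 12.3%), 4 fell and 2 rose in MPP:MA9 against MPP (13.6% and 13.5%), and 6 fell and 2 rose in CMP:MA9 against CMP (14.8% and 13%). In GMP:MA9 against GMP 5 fell, where 8.87% of all genes did, and 0 rose, where 13.5% did, although in limma, at an unadjusted p below 0.05, 2 of the 9 were higher there and 7 lower, beside 31.5% and 30.6% of all genes. Dnmt3b, Tet1 and Idh2 fell in all 4 origins. The share of all genes that did so was not counted, so this is not shown to be particular to them. The median log2 change of the 9 was -0.68, -0.98, -1.25 and -1.09 in the order ST-HSC, MPP, CMP and GMP, beside -0.04, -0.09, -0.16 and 0.00 for all genes tested. The counts from ST-HSC and over the mean were 6 and 7, and were the same 6 and 7 without replicates 4 and 5 of LT-HSC and ST-HSC. The plot of levels by group shows every sample.

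**Figure D1:**
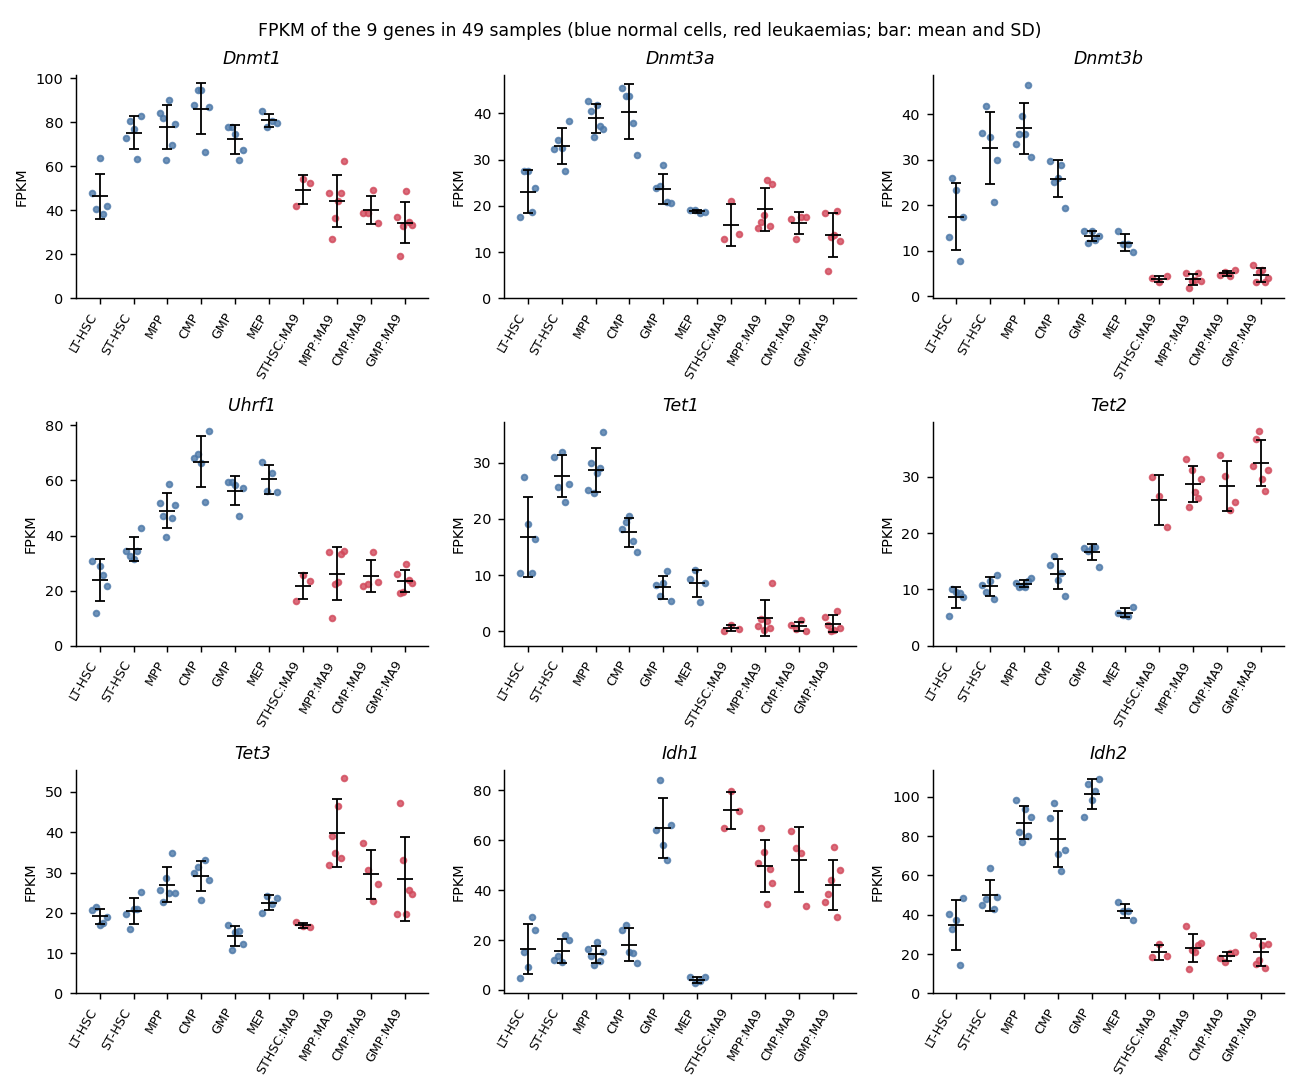
FPKM (vertical axes, linear) of the 9 genes in each of the 49 samples, by group; points are samples, blue for normal cells and red for leukaemias, and black bars are the mean and SD. Tet1 and Dnmt3b sit near the bottom in all 4 leukaemia groups, Tet2 sits above every normal sample, and Idh1 is as high in normal GMP as in leukaemia.

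Tet1 showed the largest fall of the 9 from ST-HSC, MPP and CMP. From GMP Idh2 had the larger log2 change and Tet1 the larger ratio of mean FPKM, 5.68-fold against 4.87-fold. Tet1 (ENSMUSG00000047146, chr10:62267318-62361866, minus strand in mm9) carries a CXXC domain that binds unmethylated CpG, which Tet2 lacks. In ST-HSC it was 30.9, 25.7, 31.9, 23.1 and 26.1 FPKM. In STHSC:MA9 it was 0.12, 1.13 and 0.39. The leukaemias lay far below every normal library, with a mean 50.4-fold lower, and the log2 change was -4.25 (SE 0.43, adjusted p = 2.07e-10), larger in size than that of 99.2% of genes tested. In CMP it was 18.1, 19.4, 20.5, 16.0 and 14.0, and in CMP:MA9 1.04, 0.39, 1.99 and 0.07. In MPP the lowest, median and highest values were 24.6, 28.6 and 35.4, and in MPP:MA9 0.18, 1.39 and 8.67, the last a single library, replicate 6, above the other 5 at 2.11 or less. Normal GMP already stood low, at 8.25, 6.28, 8.54, 10.7 and 5.46, and GMP:MA9 ran from 0.12 to 3.70 with a median of 0.86. In none of the 4 origins did leukaemia and normal libraries overlap, and log2 changes were -3.50 (SE 0.34) from MPP, -3.41 (SE 0.39) from CMP and -2.08 (SE 0.35) from GMP. The size of the fall differed among origins (F test, adjusted p = 0.0107), but did not pass with a pseudocount of 0.1 or a correction for GC content and length. That test passed for 38% of all genes and for 5 of the 9, which also include Dnmt3b, Tet3, Idh1 and Idh2.

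Tet2 moved the other way. Tet2 (ENSMUSG00000040943, chr3:133126643-133207354, minus strand) restrains stem cell self-renewal and is often inactivated in myeloid neoplasms. It was 10.8, 9.51, 11.5, 8.31 and 12.5 FPKM in ST-HSC and 29.9, 26.5 and 21.1 in STHSC:MA9. Among all 49 samples, the highest normal value was 17.5, in a GMP library, and the lowest leukaemia value 21.1, so that the 2 kinds of sample did not overlap. Tet2 rose from ST-HSC by a log2 change of 1.22 (SE 0.14), from MPP by 1.30 (SE 0.11) and from CMP by 1.11 (SE 0.13), the last 0.99 without CMP replicate 5. From GMP, where the normal level was highest (16.6 ± 1.47, SD, n = 5), the change was 0.92 (SE 0.12, adjusted p = 5.39e-08), short of the 2-fold line. The change was not shown to differ among origins (adjusted p = 0.231).

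Tet3 depended on the origin. Tet3 (ENSMUSG00000034832, chr6:83312367-83391672, minus strand) is best known for acting on the paternal genome in the zygote. It was 17.6, 16.6 and 16.4 FPKM in STHSC:MA9 and 19.6, 16.0, 20.9, 20.9 and 25.1 in ST-HSC, overlapping ranges with a log2 change of -0.25 (SE 0.20, adjusted p = 0.315). In CMP:MA9 it was 37.3, 30.8, 23.0 and 27.2 beside a mean of 29.1 in CMP, a change of 0.01 (SE 0.19, 95% interval -0.37 to 0.39). From MPP the change was 0.54 (SE 0.16, adjusted p = 0.00404), and from GMP 0.90 (SE 0.17, adjusted p = 2.58e-05), where GMP libraries of 10.8 to 17.0 lay below all GMP:MA9 libraries at 19.7 to 47.2. None of these 4 passed the fold threshold. The difference among origins had an adjusted p of 0.0021.

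The make-up of the TET family changed with these shifts. Tet1 made up 47.1% ± 4.27 (SD, n = 5) of the summed FPKM of Tet1, Tet2 and Tet3 in ST-HSC and 43.1% ± 4.57 in MPP (n = 6), but 1.28% ± 1.17 in STHSC:MA9 (n = 3) and 2.96% ± 3.34 in MPP:MA9 (n = 6). In GMP it was 20% ± 2.81 and in GMP:MA9 2.36% ± 2.64. The highest share in any leukaemia was 9.45% and the lowest in any normal library 16%. Tet2 held 41.1% to 59.5% of the family on average in the 4 leukaemias, against 16% to 21.3% in normal groups other than GMP, where it held 43.3% ± 3.89. The summed level of the family was lower in leukaemia from ST-HSC, at 58.6 ± 6.34 FPKM in ST-HSC and 43.2 ± 4.94 in STHSC:MA9. From MPP and CMP it was similar, at 66.7 ± 5.69 in MPP and 71 ± 11.3 in MPP:MA9, and 59.5 ± 6.22 in CMP and 58.8 ± 10.2 in CMP:MA9. From GMP it was higher in leukaemia, at 38.6 ± 5.36 in GMP and 62.2 ± 13.3 in GMP:MA9. These sums were not tested.

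**Figure D2:**
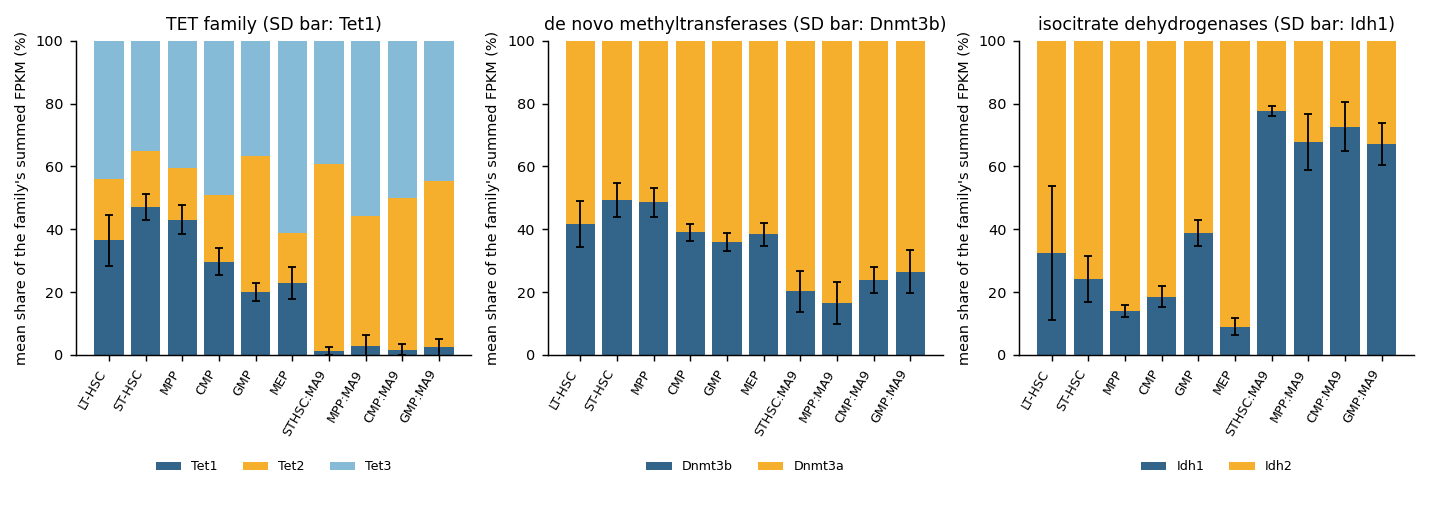
Mean share of each gene in its family's summed FPKM (vertical axes, percent) by group, for the TET enzymes, the de novo methyltransferases and the isocitrate dehydrogenases; bars are stacked group means and black bars the SD of the gene at the bottom. Tet1 is 20% or more of the family in the 6 normal groups and under 3% in the 4 leukaemias, and Idh1 passes from a minority to a majority of its pair.

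Among the de novo methyltransferases, Dnmt3b fell further than Dnmt3a. Dnmt3b (ENSMUSG00000027478, chr2:153475186-153513466, plus strand) was 35.8, 41.8, 35.0, 20.8 and 29.9 FPKM in ST-HSC and 4.10, 3.09 and 4.35 in STHSC:MA9. It was 29.8, 25.02, 26.0, 28.9 and 19.5 in CMP and 4.72, 5.36, 4.46 and 5.73 in CMP:MA9. Normal GMP had 14.3, 11.8, 14.4, 12.4 and 13.2, and GMP:MA9 3.07 to 6.95 with a median of 4.74. All leukaemias were thus below 7 while their normal cells of origin started from quite different levels. Log2 changes were -2.77 (SE 0.22) from ST-HSC, -3.05 (SE 0.17) from MPP, -2.14 (SE 0.20) from CMP and -1.36 (SE 0.18) from GMP, and differed among origins (adjusted p = 7.61e-06) under every alternative tried. Among the 4 leukaemia groups themselves, whose means were 3.70 to 5.07, no difference was found (F test, adjusted p = 0.440). Of the 31-base stretches of Dnmt3b exons, 12.7% recur in other genes, most often in Gm14490, which reached at most 1.27 FPKM.

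Dnmt3a (ENSMUSG00000020661, chr12:3806007-3914443, plus strand) is the DNMT gene most often mutated in human myeloid leukaemia. In ST-HSC it was 32.2, 34.3, 32.4, 27.6 and 38.4 FPKM and in STHSC:MA9 12.8, 21.1 and 13.9. It fell by 1.03 (SE 0.22) from ST-HSC, by 1.00 (SE 0.17) from MPP and by 1.25 (SE 0.20) from CMP on the log2 scale. The first 2 stood at the fold threshold and were lost in 3 of 8 and 7 of 12 fits that left out 1 library, respectively, at -0.90 to -0.98 (without STHSC:MA9 replicate 1 or 3 or ST-HSC replicate 5) and -0.95 to -0.99 (without MPP replicate 1, 2 or 4 or MPP:MA9 replicate 1, 2, 3 or 5). Both were also lost under a correction for GC content and length. Median-ratio scaling ended the MPP call (-0.92) and that over the mean of the origins (-0.96). From GMP the log2 change was -0.81 (SE 0.18, adjusted p = 0.000246), not called, but it was -1.24 (adjusted p = 1.46e-06) and called under the GC and length correction. Dnmt3b was 36% to 49.2% of the pair on average in normal groups and 16.5% to 26.5% in leukaemias, and each leukaemia group lay below its own normal cell except GMP:MA9, whose highest library, at 34.3%, passed the lowest GMP library, at 32.8%.

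Dnmt3l, a catalytically inactive relative that stimulates the de novo enzymes and is known mainly from germ cells, went the opposite way. It was listed at 0 FPKM in every ST-HSC and CMP library and was at most 0.26 in MPP. It was 7.26, 23.7 and 16.8 in STHSC:MA9, 1.11 to 10.6 in CMP:MA9 (median 6.58), and 3.64 to 8.46 in MPP:MA9. Normal GMP held a low level, 0.56 to 1.74, and GMP:MA9 ran from 1.39 to 8.55, overlapping them at its lower end. Dnmt3l was called higher in all 4 origins (log2 change over their mean 2.59, SE 0.18, adjusted p = 2.07e-15, a size that depends on the pseudocount). It shares 67 exon bases, 2.24% of its exons, with Aire on the other strand, whose mean was 0.19 FPKM.

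**Figure D3:**
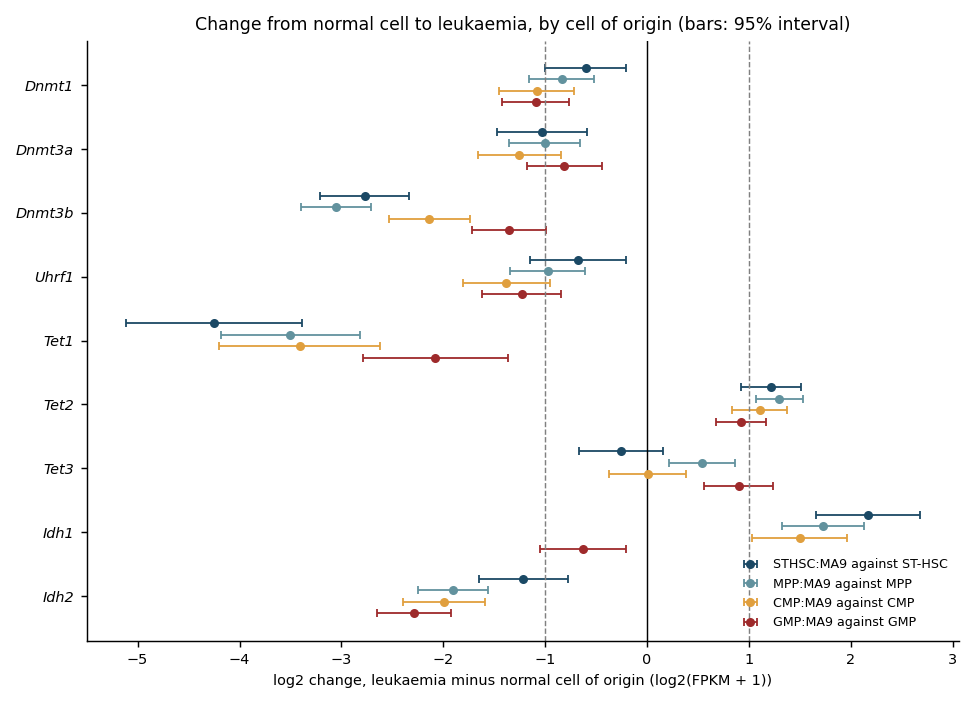
Log2 change from the normal cell to the leukaemia (horizontal axis, log2(FPKM + 1) difference) for the 9 genes, 1 point per origin with its 95% interval; dashed lines mark the 2-fold threshold. The Tet1 and Dnmt3b points run from the largest fall in ST-HSC or MPP to the smallest in GMP, and the GMP point of Idh1 lies at -0.63 while the other 3 lie between 1.5 and 2.17.

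The maintenance pair fell from CMP and GMP, and by less than Tet1 or Dnmt3b. Dnmt1 (ENSMUSG00000004099, chr9:20711650-20757317, minus strand) was 87.9, 94.7, 94.8, 66.5 and 87.0 FPKM in CMP and 38.8, 38.7, 49.1 and 34.1 in CMP:MA9. It was 77.9, 78.04, 74.5, 62.9 and 67.5 in GMP and 19.4 to 48.5 in GMP:MA9. It fell in both, by 1.08 (SE 0.18) and 1.09 (SE 0.16) on the log2 scale, the first not past 2-fold under median-ratio scaling or the GC and length correction, the second at -0.94 without GMP:MA9 replicate 2. From ST-HSC and MPP the log2 changes were -0.60 (SE 0.20, adjusted p = 0.0111) and -0.84 (SE 0.16, adjusted p = 1.64e-05), neither called. Uhrf1 (ENSMUSG00000001228, chr17:56442744-56462909, plus strand) was 68.3, 69.7, 66.3, 52.3 and 77.8 FPKM in CMP and 21.6, 22.6, 34.0 and 23.1 in CMP:MA9. It fell from CMP by 1.38 (SE 0.21) and from GMP by 1.23 (SE 0.19). From ST-HSC and MPP the log2 changes were -0.68 (SE 0.23, adjusted p = 0.0147) and -0.98 (SE 0.18, adjusted p = 2.01e-05), neither called. The second was called at -1.04 under the GC and length correction, at -1.01 with a pseudocount of 0.1 and at -1.03 to -1.07 without MPP replicate 3 or MPP:MA9 replicate 1, 5 or 6. The first had an adjusted p of 0.062 without replicates 4 and 5 of LT-HSC and ST-HSC. For neither gene was the change shown to differ among origins (adjusted p = 0.294 for Dnmt1 and 0.217 for Uhrf1). Of the 31-base stretches of Uhrf1 exons, 21.6% recur in other genes, most often in Gm5648, which reached at most 0.08 FPKM.

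The S phase list was also lower, least from ST-HSC. Of its 15 genes, which include the replicative helicase genes Mcm2 to Mcm7, 0 fell from ST-HSC, 5 from MPP, 10 from CMP and 9 from GMP, with median log2 changes of -0.41, -0.87, -1.18 and -1.06. The mean log2(FPKM + 1) over the 15 was 6.31 ± 0.17 in CMP (n = 5) and 6.34 ± 0.11 in GMP (n = 5), against 5.26 ± 0.32 in CMP:MA9 (n = 4) and 5.35 ± 0.39 in GMP:MA9 (n = 6). LT-HSC, known as a quiescent population, had the lowest normal mean, 5.4 ± 0.37 (n = 5), and the lowest normal Dnmt1 and Uhrf1, 46.4 ± 10.2 and 23.9 ± 7.5 FPKM. These means include LT-HSC replicates 4 and 5. There the S phase mean was 5.44 and 5.45, Dnmt1 38.1 and 42.0 and Uhrf1 25.7 and 21.7 FPKM. In replicates 1 to 3 the S phase mean was 4.77 to 5.76, Dnmt1 40.7 to 63.6 and Uhrf1 12.0 to 30.9 FPKM. The part of S phase cells in the changes of Dnmt1 and Uhrf1 was not tested. Over all 49 samples the genes most like Uhrf1 were Mcm3, Mcm5 and Mcm4 (Pearson's r = 0.936, 0.933 and 0.920 of log2(FPKM + 1), among 12155 genes), and those most like Dnmt1 were Ssrp1, Dnajc9 and Smarcb1 (0.952, 0.934 and 0.932). These correlations describe samples that share cell types and carry no test.

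**Figure D4:**
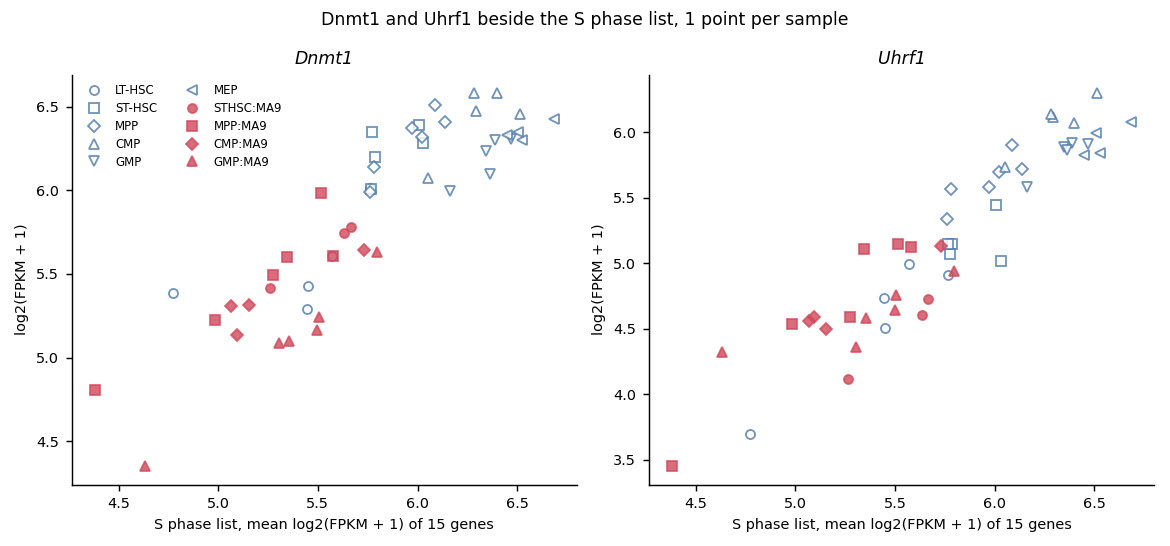
Level of Dnmt1 and of Uhrf1 (vertical axes, log2(FPKM + 1)) against the mean log2(FPKM + 1) of the 15 S phase genes (horizontal axes) in each of the 49 samples; open blue symbols are normal groups and filled red symbols leukaemias. Leukaemias and most LT-HSC samples lie to the lower left and CMP, GMP and MEP to the upper right in both panels.

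Idh2 fell in all 4 origins and Idh1 rose in 3. Idh2 (ENSMUSG00000030541, chr7:87239732-87260278, minus strand), the mitochondrial enzyme, was 45.0, 48.1, 63.6, 43.2 and 49.2 FPKM in ST-HSC and 18.6, 25.3 and 18.9 in STHSC:MA9. In CMP it was 89.2, 97.1, 71.1, 62.2 and 72.7, and in CMP:MA9 17.8, 15.9, 20.6 and 20.9. In GMP it was 89.5, 107, 98.6, 103 and 109, and in GMP:MA9 13.1 to 29.8 with a median of 20.8. No leukaemia overlapped its normal cell, and Idh2 fell by 1.21 (SE 0.21), 1.91 (SE 0.17), 1.99 (SE 0.20) and 2.29 (SE 0.18) on the log2 scale from ST-HSC, MPP, CMP and GMP. The change differed among origins (adjusted p = 0.0183), but did not pass without STHSC:MA9 replicate 2, or without replicates 4 and 5 of LT-HSC and ST-HSC.

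Idh1 (ENSMUSG00000025950, chr1:65205190-65233053, minus strand), the cytosolic enzyme, was 12.1, 13.7, 11.03, 21.9 and 19.97 FPKM in ST-HSC and 64.8, 79.6 and 71.7 in STHSC:MA9. It was 23.9, 26.1, 15.1, 14.8 and 11 in CMP and 63.7, 56.8, 55.0 and 33.5 in CMP:MA9. It rose by 2.17 (SE 0.25), 1.73 (SE 0.20) and 1.5 (SE 0.23) on the log2 scale from ST-HSC, MPP and CMP. Normal GMP, however, stood at 64.2, 84.2, 58.2, 51.9 and 66.2, and GMP:MA9 ran from 29.1 to 57.1 with a median of 41.2, overlapping ranges with a log2 change of -0.63 (SE 0.21, adjusted p = 0.00949). The change differed among origins with an adjusted p of 1.23e-08, and under every alternative tried. Idh1 was 77.6% ± 1.63 (SD, n = 3) of the IDH pair in STHSC:MA9 and 67.1% ± 6.76 (n = 6) in GMP:MA9, against 24.1% ± 7.30 (n = 5) in ST-HSC and 38.9% ± 4.15 (n = 5) in GMP. In GMP:MA9 the share was thus a majority with Idh2 lower and Idh1 not called.

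Idh1 was higher in the stem cell libraries with the highest granulocyte markers. In LT-HSC, Idh1 was 29.2 and 23.9 FPKM in replicates 4 and 5, the 2 libraries with high granulocyte and erythroid markers, and 4.77, 15.2 and 9.34 in the other 3. In ST-HSC it was 21.9 and 19.97 in replicates 4 and 5 and 11.03 to 13.7 in the others. Among those others, replicate 3 had the highest granulocyte sum, 1148 FPKM, and the lowest Idh1, 11.03. The 6 granulocyte markers summed to 18096 to 45524 FPKM in STHSC:MA9, 855 to 50663 in MPP:MA9, 1399 to 30613 in CMP:MA9, 1207 to 14335 in GMP:MA9 and 1702 to 11348 in GMP, and to at most 858 in MPP and 241 in CMP. Their part in the Idh1 result was not tested. The log2 change from ST-HSC was 2.46 (adjusted p = 1.61e-09) without replicates 4 and 5 of LT-HSC and ST-HSC, above the value with them.

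**Figure D5:**
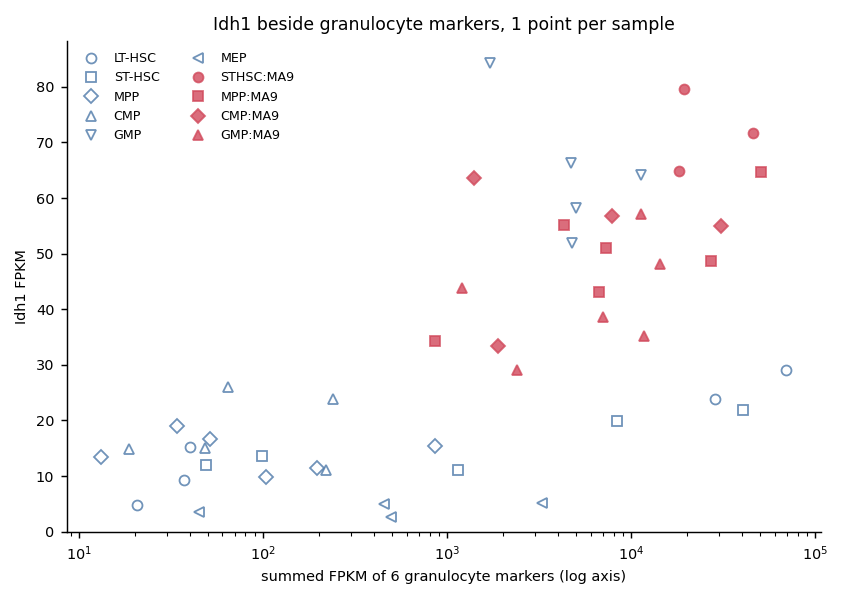
Idh1 FPKM (vertical axis, linear) against the summed FPKM of 6 granulocyte markers (horizontal axis, log scale) in each of the 49 samples; open blue symbols are normal groups and filled red symbols leukaemias. LT-HSC and ST-HSC replicates 4 and 5 lie at the right with Idh1 of 19.97 to 29.2, below every leukaemia except the lowest, at 29.1.

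Few differences were found among the 4 leukaemia groups. Of the 6 pairs of origins, 1 held a call among the 9. Tet3 was lower in STHSC:MA9, at 17.6, 16.6 and 16.4 FPKM, than in MPP:MA9, at 31.9 to 53.4 with a median of 37.0. The groups did not overlap, and the log2 difference was -1.17 (SE 0.23, adjusted p = 0.00375), in a pair where 2.88% of 12128 genes were called. It was -0.90 (adjusted p = 0.0451) with a correction for GC content and length, and not called. With that correction and the replicate block it was -0.91 (adjusted p = 0.136 in limma), past neither threshold. In limma 0 of the 9 were called in the other 5 pairs, where 0.363% (STHSC:MA9 against CMP:MA9), 0.536% (STHSC:MA9 against GMP:MA9), 0.115% (MPP:MA9 against CMP:MA9), 2.23% (MPP:MA9 against GMP:MA9) and 0.206% (CMP:MA9 against GMP:MA9) of genes were. At an unadjusted p below 0.05, 1, 4, 0, 2 and 0 of the 9 differed in these pairs, beside 15.5%, 18.9%, 9.35%, 30.8% and 13.6% of all genes. The F test over the 4 groups passed for 13.3% of all genes and for Tet3 alone of the 9 (adjusted p = 0.0124), and the next was Idh1 (0.0885), whose means ran from 42.0 ± 9.94 FPKM in GMP:MA9 (n = 6) to 72.0 ± 7.40 in STHSC:MA9 (n = 3).

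Among normal cells all 9 genes differed over the 6 groups by the F test, as did 78.4% of all genes. From LT-HSC to ST-HSC 0 of the 9 were called by limma (2.26% of all genes), from ST-HSC to MPP 0 (3.44%) and from MPP to CMP 0 (4.32%), while 6, 3 and 3 of the 9 differed at an unadjusted p below 0.05, as did 22.4%, 32.1% and 28.2% of all genes. The 6 of the first step were all higher in ST-HSC, with log2 changes from 0.51 for Dnmt3a to 0.94 for Dnmt3b. All genes leaned the same way in that step: in limma, at an unadjusted p below 0.05, 17.7% were higher and 4.75% lower. Their median log2 change was 0.12, and -0.004 with median-ratio scaling. Without replicates 4 and 5 of both groups Dnmt1, Dnmt3b and Idh2 kept an adjusted p below 0.05 there and Dnmt3a, Uhrf1 and Tet1 did not, with fewer samples and log2 changes of 0.45, 0.54 and 0.70 in place of 0.51, 0.60 and 0.77.

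The steps out of CMP held the calls among normal cells. From CMP to GMP 2 of the 9 were called (11.2% of all genes): Idh1 rose (log2 change 1.83, SE 0.31, adjusted p = 3.59e-05) and Tet1 fell (-1.09, SE 0.21, adjusted p = 0.000124). Tet3, at 14.2 ± 2.53 FPKM in GMP against 29.1 ± 3.84 in CMP, had a log2 change of -0.99 (SE 0.13, adjusted p = 7.44e-07), just short of the threshold. From CMP to MEP 3 fell (11.8% of all genes were called): Idh1 (-1.87, SE 0.33), Dnmt3b (-1.07, SE 0.22) and Dnmt3a (-1.05, SE 0.13). Median-ratio scaling moved the median of all genes by over 0.1 in both steps, from -0.20 to -0.01 and from -0.14 to 0, and left Idh1 as the single call in each. Tet1 was at -0.99 without GMP replicate 5 in the first step and Dnmt3b at -0.99 without MEP replicate 4 in the second. Idh1 spanned a wide range among normal cells: 64.9 ± 12.1 FPKM in GMP (n = 5), 14.3 to 18.2 on average in LT-HSC, ST-HSC, MPP and CMP and 4.12 ± 1.22 in MEP (n = 4), with every MEP library, at 2.71 to 5.23, below every MPP and CMP library. The LT-HSC and ST-HSC means include replicates 4 and 5, whose values of 19.97 to 29.2 lay above those of the other libraries of both groups.

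Ordered by mean over all 10 groups, neighbouring groups overlapped in nearly every case. Such overlap was not counted for other genes, so it is not shown to be particular to these 9. Of the 9 neighbouring pairs, none of Uhrf1, Tet3 or Idh2 was free of overlap. For Dnmt1 the single gap lay between GMP and STHSC:MA9 and for Dnmt3b between MEP and CMP:MA9, so that both divided normal from leukaemic groups, except that LT-HSC ranked among the leukaemias for Dnmt1, at 46.4 ± 10.2 FPKM. That mean includes LT-HSC replicates 4 and 5, at 38.1 and 42.0, beside 47.8, 40.7 and 63.6 in replicates 1 to 3. The rank of LT-HSC rests in part on these 2 libraries and was not worked out without them. For Tet2 it lay between STHSC:MA9 and GMP, for Dnmt3a between MEP and CMP:MA9, and for Tet1 between ST-HSC and CMP. Idh1 had 2, between GMP:MA9 and CMP and between MPP and MEP. From the highest group mean to the lowest, Tet1 spanned 52.5-fold, Idh1 17.5-fold, Dnmt3b 9.99-fold, and Dnmt1 2.51-fold.

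Other genes of the pathway were also lower in leukaemia in part, and 11.3% of all genes fell over the mean of the 4 origins. Of 12 partners of maintenance and de novo methylation, 4 fell by the same measure and 1, Dnmt3l, rose. Those that fell most were Cdca7 (log2 change -1.43, SE 0.11), which with the remodeller Hells gives access for methylation, and the replicative ligase Lig1 (-1.34, SE 0.10). None of 8 methyl-CpG readers was called by limma, with a median of 0.06, and the largest rise was Mbd2 (0.58, adjusted p = 1.87e-09). Of 13 base excision genes tested, 3 fell, the most Apex1 (-1.47, SE 0.11), the abasic endonuclease, and Ung (-1.45, SE 0.13), the uracil glycosylase, while Tdg, the glycosylase that removes the oxidised bases TET enzymes make, was at -0.08 (adjusted p = 0.388). Median changes of these 3 lists were -0.44, 0.06 and -0.31, beside -0.08 for all genes.

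Of the TET partners only Ogt and Cxxc5 passed the filter on low values. From GMP Ogt rose and Cxxc5 fell, and over the mean of the origins Cxxc5 alone was called. Cxxc5, a CpG-binding protein, fell with Tet1. It was 11.4 to 12.1 FPKM in ST-HSC and 0.04 to 0.12 in STHSC:MA9, and 2.14 to 3.70 in GMP and 0 to 1.04 in GMP:MA9, with a log2 change of -3.17 (SE 0.08, adjusted p = 8.25e-28) over the mean. It was also among the 3 genes most like Tet1 over the 49 samples, with Gpr56 and Msi2 (r = 0.949, 0.955 and 0.949). The median log2 change of 14 genes of 2-oxoglutarate metabolism was -0.24. Of 11 genes tested of the S-adenosylmethionine and folate cycles, which supply the methyl group, 4 fell, the most Mthfd1 (-1.62, SE 0.13) and Ahcy (-1.25, SE 0.08), the hydrolase of the product S-adenosylhomocysteine. The list's median was -0.64. Of the S phase genes Gins2 (-1.41, SE 0.13) and Tyms (-1.13, SE 0.12) fell most over the mean.

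The patterns most like the remaining genes over the 49 samples were Btbd3, 2410018M08Rik and Frmd6 for Dnmt3b (r = 0.959, 0.954 and 0.954), Kctd1, Fbxo21 and Ncs1 for Dnmt3a (0.881, 0.877 and 0.873), and Pkib, A630001G21Rik and Crybg3 for Tet2 (0.968, 0.962 and 0.960). They were Cic, Gltscr1 and Trim65 for Tet3 (0.914, 0.913 and 0.861), Soat1, Mtus1 and Igsf6 for Idh1 (0.952, 0.950 and 0.950), and Prps2, Igfbp4 and Hn1l for Idh2 (0.934, 0.913 and 0.913). Between the 9 themselves, Tet1 and Dnmt3b had r = 0.893, Dnmt1 and Uhrf1 0.867, and Idh1 and Tet2 0.839.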

How the data were processed

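RNA of 49 samples was made into amplified cDNA (NuGEN Ovation RNA-Seq V2, no strand information) and sequenced. The authors estimated expression with RSEM against mm9, as the submitters' processing notes name them, and deposited FPKM per Ensembl gene with 2 decimals. The RSEM version and the annotation were not given in the sources used here. FPKM remove depth and length, so a gene that takes a large share of a library lowers the others. Reads per library are unknown, so that no counting interval can be given. Of 68 columns, 49 matched labels and 19 were not used. GENCODE M1 gave symbols and positions (NCBIM37, which is mm9).

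Values were tested as log2(FPKM + 1), for genes whose mean in the fitted samples reached 1 FPKM, with limma 3.58.1 (trend) in R 4.3.3, on groups only: 40 samples for leukaemias against normal cells, 19 for leukaemias and 30 for normal cells. The study modelled counts. The values here are FPKM, so limma was used with the thresholds of 2-fold and 0.05. All 9 genes passed the filter in all 3 fits. Nothing in the labels ties samples to the 2 replicate experiments or to shared donors, so the p-values measure the spread between these samples. Same-numbered LT-HSC and ST-HSC samples deviated together (r of 0.14 to 0.68 in 5 pairs). These pairs include replicates 4 and 5, high in granulocyte and erythroid markers in both groups. The tests given here were not paired, and the replicate block, run as an alternative, changed no call of the 9 between these 2 groups. No other comparison had every pair above 0.1. The code was tested on simulated data. Named genes were the 9, the 2 largest called rises and falls of each list, and the 3 genes most correlated with each of the 9. Others, among them Mbd2, Tdg, Ogt and the cell type markers, were named without regard to this rule. One result that this rule would name is not reported here. Genes and lists were chosen with earlier results of these data known. Protein sequences were not compared here. Alternatives were other pseudocounts, filters, scaling, GC and length correction, replicate block, fewer groups in the fit, no fold threshold and leaving out libraries.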

Additional observations from a re-analysis of the deposited data

Results flagged for a closer look

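In 81 combinations of gene and group with 4 to 6 samples, 8 had 1 library far from the others (Dixon's test at the 95% level), where chance gives about 1 in 20. Tet1 was 8.67 FPKM in MPP:MA9 replicate 6, against 0.18 to 2.11 in the other 5. Uhrf1 was high at 34.01 in CMP:MA9 replicate 3 (others 21.6 to 23.1) and at 42.71 in ST-HSC replicate 5 (others 31.4 to 34.5), and low at 46.94 in GMP replicate 4 (others 57.3 to 59.5). Dnmt1 was 66.51 in CMP replicate 4 (others 87.0 to 94.8) and Dnmt3a 12.82 in CMP:MA9 replicate 2 (others 17.2 to 17.7). Tet2 was 14.0 in GMP replicate 5 (others 16.9 to 17.5) and 5.24 in LT-HSC replicate 1 (others 8.71 to 9.99).

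For 5 genes, limma's F test found that leukaemia and normal cell differed by unequal amounts in the 4 origins: Idh1 (adjusted p = 1.23e-08), Dnmt3b (7.61e-06), Tet3 (0.0021), Tet1 (0.0107) and Idh2 (0.0183). For Idh1 the direction also differed, with 3 origins above 0 and GMP below.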

How the results depend on the processing

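There were 10 alternatives, the last being 89 fits that each left out 1 library. Dropping the fold threshold alters calls but no log2 change. Of 1441 log2 changes recomputed under the other alternatives, 4 had another sign and 68 were past the threshold in one fit only. All 4 were Tet3 in CMP:MA9 against CMP, which ran from -0.11 to 0.12 over the 9 fits without 1 library. Dnmt3a over the mean of the origins was not called without CMP:MA9 replicate 2 (-0.998), GMP:MA9 replicate 2 (-0.97) or STHSC:MA9 replicate 1 (-0.99), nor with median-ratio scaling (-0.96). With no fold threshold, 9 of the 9 genes passed in GMP:MA9 against GMP, 6 in ST-HSC against LT-HSC, 3 in MPP against ST-HSC, 1 in CMP against MPP, 6 in GMP against CMP and 6 in MEP against CMP, beside 58.4%, 9.19%, 18.9%, 14.5%, 36.7% and 31.6% of all genes. With median-ratio scaling 1 was called in GMP against CMP and 1 in MEP against CMP, Idh1 in both. With the correction for GC content and length, alone or with the replicate block, these counts were also 1 and 1, and 0 genes were called between STHSC:MA9 and MPP:MA9 and 0 by the F test over the leukaemias. For MEP against CMP a pseudocount of 0.1 gave 5 calls and the replicate block 5, where the samples share only a number, and the block moved no other count by over 1.5 times. Without 1 library, counts ran from 1 to 2 for the F test over the leukaemias (2 without CMP:MA9 replicate 4), from 1 to 4 for GMP against CMP (1 without GMP replicate 5, 4 without CMP replicate 5), from 3 to 5 for MEP against CMP (5 without CMP replicate 5) and from 0 to 1 for ST-HSC against LT-HSC. There Dnmt3b was called without LT-HSC replicate 2 or 3 or ST-HSC replicate 4. Leaving out replicates 4 and 5 of LT-HSC and ST-HSC was chosen after seeing the data, and none of its 6 counts moved by over 1.5 times. Summing rows of 1 symbol was not run, since 0 of the 9 had more than 1 Ensembl gene. The causes were not tested. FPKM carry no depth, so the precision of low values, such as Tet1 in leukaemia, is unknown.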
